A study of Mus musculus with 6 samples.

Results

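The miR-143 and miR-145 entries of a mouse microRNA (miRNA) array were followed in 3T3-L1 adipocytes exposed to interleukin-6 (IL-6). The members were all array entries named mmu-miR-143 or mmu-miR-145, with any letter and either arm of the hairpin, which gave 5 of the 1247 miRNAs on the array and 12 of its 3105 probes. They were mmu-miR-143-3p, mmu-miR-143-5p, miR-145a-5p, miR-145a-3p and miR-145b, written below without the species prefix. Of these, 3 were well above background on all 6 arrays and were tested, among 299 tested miRNAs. The remaining pair, miR-145a-3p and miR-145b, was above background on no array, as were 930 miRNAs of the whole array.

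3T3-L1, derived from mouse embryo fibroblasts, is 1 cell line whose confluent cells become adipocytes when hormones are added. In the IL-6 group (2 arrays) recombinant IL-6 at 1 ng/ml was present from the induction of differentiation and was renewed with the medium every 24 h, and the control group (4 arrays) was untreated. Both groups received the same induction medium for 3 days, with isobutyl-methylxanthine at 0.5 mmol/l, dexamethasone at 1 µmol/l, insulin at 2 µmol/l and rosiglitazone at 2 µmol/l. Of these additives, both groups then had only insulin for 3 days and none for 2 days, and RNA was taken on day 8. Nothing in the labels says that replicate arrays stand for separate dishes, so p-values here reflect variation among these arrays, possibly technical only. The series asked which miRNAs IL-6 changes in these cells.

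miR-143 and miR-145 are cut from neighbouring hairpins that are read from 1 long noncoding host RNA. They are best known from vascular smooth muscle, where serum response factor and myocardin switch them on and where they favour the contractile state. miR-143 goes up when preadipocytes become fat cells and promotes that step in human cells in culture, whereas miR-145 has been reported to restrain it in pig preadipocytes. In the mouse liver, excess miR-143 impairs insulin signalling to AKT.

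On build GRCm38, the Mir145a hairpin lies on chromosome 18 at 61647825 to 61647894 and the Mir143 hairpin at 61649196 to 61649258, with 1301 bases between them. Both lie within the bounds of Carmn, a long noncoding RNA gene at 61645878 to 61665538 that is also named Mir143hg. By the positions in the files, the probes for miR-143-3p cover 61649240 to 61649255 and those for miR-145a-5p cover 61647840 to 61647853. These spans are given without a strand, so they do not show which arm of a hairpin they fall on. miR-145b is not part of this cluster. Its hairpin lies at 69022199 to 69022273, 7.37 megabases from Mir143, within the bounds of the long noncoding RNA gene Gm31088.

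All 6 arrays lay on 1 slide and were scanned once. IL-6 arrays detected 313 and 300 miRNAs, against 268 to 294 on control arrays. By the array positions in the file headers, both IL-6 arrays lay in slide row 2 and all control arrays in slide row 1, so row and treatment cannot be told apart. IL-6 arrays 1 and 2 shared slide columns 3 and 4 with control arrays 3 and 4. Of 22 listed miRNAs on the array that mark other cell types, among them miR-1a and miR-133 of muscle, miR-223 of blood, miR-124 of neurons, miR-126 of endothelium, miR-122 of liver and miR-200 of epithelium, 0 were above background on any array. Their summed scaled intensity was 6.27 to 8.44 on IL-6 arrays and 7.98 to 13.9 on control arrays. The list does not hold every such marker. Of 3 others looked up after the data were seen, miR-205-5p (epithelium) measured 6.25 and 6.38 (log2) with IL-6 and 6.17 to 6.33 in controls. The other two, found in liver and gut epithelium, measured 4.23 and 4.08 with IL-6 and 4.26 to 4.63 in controls for miR-192-5p, and 4.43 and 4.34 with IL-6 and 4.48 to 4.67 in controls for miR-194-5p. miR-192-5p and miR-194-5p were thus lower on both IL-6 arrays than on any control, as were 21.7% of all tested miRNAs, miR-143-3p among them. Neither had a limma adjusted p under 0.05 (0.175 and 0.176), and their part in the results was not tested. Levels below are background-subtracted intensities, averaged over the spots and probes of a miRNA and scaled so that arrays share the 75th percentile of the 502 probes detected on all arrays. An intensity depends on the probe as well as on the RNA, so levels of different miRNAs are not compared.

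miR-143-3p, the arm taken as the mature guide strand, lay lower with IL-6. It measured 563 and 527 scaled intensity units on IL-6 arrays 1 and 2, against 731, 669, 785 and 678 units on control arrays 1 to 4. The means were 545 ± 25.5 (SD, n = 2) on IL-6 arrays, against 716 ± 53.5 (SD, n = 4) on control arrays. Both IL-6 arrays lay below all control arrays, and the groups did not overlap, as was so for 21.7% of all tested miRNAs in this direction. The gap between the higher IL-6 array and the lowest control was 0.25 on the log2 scale, where the control arrays themselves spanned 0.23.

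On the log2 scale the level of miR-143-3p was 9.09 ± 0.07 (SD, n = 2) on IL-6 arrays, against 9.48 ± 0.11 (SD, n = 4) on control arrays. The difference of -0.39 ± 0.08 SE, with a 95% interval from -0.60 to -0.18, did not pass the threshold of 0.05 after adjustment over all tested miRNAs (limma adjusted p = 0.0845, unadjusted p = 0.0036). In linear terms it was 1.31-fold lower with IL-6. The call depended on 1 array: without control array 4 the difference of -0.42 passed (limma adjusted p = 0.0456). That setting raised the calls over all tested miRNAs to 31 of 299 (10.4%), of which 8 (2.68%) were lower with IL-6, so the gain was not limited to miR-143-3p. Without scaling the arrays to each other the difference was -0.10 ± 0.24 SE, and the unscaled IL-6 values, 693 and 545 units, overlapped the control values of 709, 741, 546 and 652 units. Scaling moved the median difference of all tested miRNAs by 0.28 between these settings. Relative to that median, miR-143-3p stood at -0.38 with scaling and at -0.37 without.

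**Figure D1:**
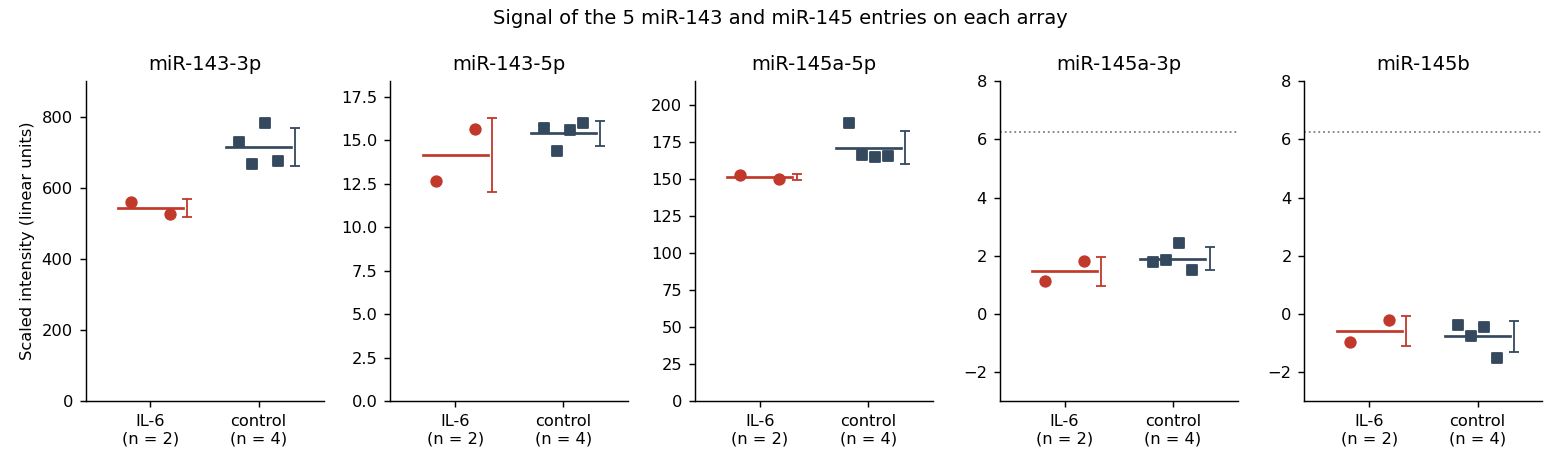
Scaled intensity (linear units, a separate axis for each miRNA) of the 5 entries on each array, with IL-6 arrays as red circles and control arrays as dark squares, lines at the group means and bars for the SD. For miR-143-3p and miR-145a-5p both IL-6 arrays sit below all control arrays, miR-143-5p overlaps, and miR-145a-3p and miR-145b stay under the dotted line at 6.25, the lowest level used for testing.

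miR-145a-5p, the guide arm of the other hairpin in the cluster, showed a smaller difference. It measured 152 and 149.8 scaled intensity units on IL-6 arrays 1 and 2, against 188, 166, 165 and 165 units on control arrays 1 to 4. Both IL-6 arrays lay below all control arrays, with a gap of 0.11 (log2), as they did for 21.7% of all tested miRNAs. Control array 1 stood above the other controls, which were close together. The log2 level was 7.24 ± 0.02 (SD, n = 2) on IL-6 arrays, against 7.42 ± 0.09 (SD, n = 4) on control arrays. The difference of -0.18 ± 0.08 SE did not pass (limma adjusted p = 0.241), and its 95% interval ran from -0.37 to 0.01. It was -0.13 (limma adjusted p = 0.409) without control array 1, and it turned to 0.12 without scaling between arrays.

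miR-143-5p, the passenger arm of the Mir143 hairpin, was dim and did not separate the groups. It measured 12.7 and 15.6 scaled intensity units with IL-6, against 15.7, 14.4, 15.6 and 16.0 units in controls 1 to 4. IL-6 array 1 was the lowest of all 6 arrays, while IL-6 array 2 lay within the control range. The log2 levels were 3.82 ± 0.22 (SD, n = 2) on IL-6 arrays, against 3.94 ± 0.07 (SD, n = 4) on control arrays. They differed by -0.13 ± 0.10 SE (limma adjusted p = 0.492), with a 95% interval from -0.38 to 0.12. The difference became 0.02 without IL-6 array 1, -0.28 without IL-6 array 2 and 0.16 without scaling between arrays.

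The passenger arm miR-145a-3p and the distant miR-145b were not detectable. None of the 230 spots kept for miR-145a-3p over the 6 arrays was well above background, and its scaled intensity was 1.12 and 1.83 units with IL-6 and 1.5 to 2.46 units in controls. None of the 228 spots kept for miR-145b was either, with -0.95 and -0.22 units with IL-6 and -1.51 to -0.37 units in controls. Both stayed under 6.25 units, the floor set from the dimmest detected miRNAs, so no difference between the groups is given for them.

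Among the 3 tested members, 0 passed the adjusted threshold in the lower direction, and 0% of all tested miRNAs did (limma, with 36 of 299, or 12%, lower at an unadjusted p under 0.05). These shares moved with the processing: unadjusted, 0 were lower and 50 higher without scaling, 69 lower and 31 higher with scaling over all mouse probes, and 9 lower and 52 higher with the scanner's total signal per miRNA. In either direction the share of all tested miRNAs that passed was 0.334%, a single miRNA outside this set. At an unadjusted p under 0.05, 1 of the 3 members, miR-143-3p, was lower and 0 were higher, while 10.7% of all tested miRNAs were higher. All 3 differences were below 0, as were those of 54.5% of all tested miRNAs, although those of miR-145a-5p and miR-143-5p turned above 0 without scaling. Both IL-6 arrays lay below all controls for 2 of the 3 members, against 21.7% of all tested miRNAs. By size, miR-143-3p had the difference ranked 3 of 299 from the most lowered, and rank 10 with quantile normalization. Only miR-183-3p at -0.49 and miR-96-5p at -0.40, from another cluster and named after their values were seen, stood lower under this processing. Of these, miR-183-3p was dim, at 3.34 (log2) with IL-6 and 3.83 in controls, where the floor was 2.64. miR-145a-5p ranked 60 and miR-143-5p 86, and the median over all tested miRNAs was -0.02.

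**Figure D2:**
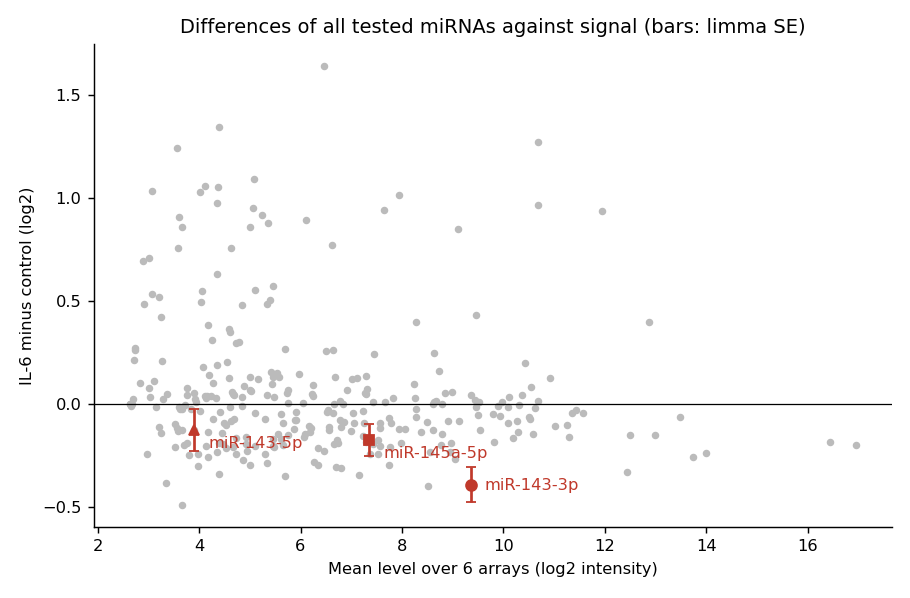
Difference between IL-6 and control (log2, vertical) against the mean level over 6 arrays (log2 intensity, horizontal) for the 299 tested miRNAs in grey, with the 3 tested members in red and bars for limma's SE. miR-143-3p at -0.39 lies at the lower edge of the cloud, and miR-145a-5p at -0.18 and miR-143-5p at -0.13 lie inside it.

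Signal strength sets how precisely an array measures a miRNA, so the members were also set beside miRNAs of like signal. For miR-143-3p, 40 other tested miRNAs had a mean level within 1 log2 unit. Its SD between control arrays of 0.11 was below their median of 0.13. Of these 40, 1 was lower by more with IL-6, namely miR-96-5p as above, and in 7 the IL-6 arrays were the lowest of the 6. Around miR-145a-5p there were 62 such miRNAs, of which 14 were lower by more and 16 had separate groups in that direction.

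Each tested member was read by a pair of probes that differ by 1 base in length, each with 20 spots on an array. The 15-base probe for miR-143-3p gave 77.9% and 72.6% of its control mean on IL-6 arrays 1 and 2, against 94.6% to 109% on control arrays. The 16-base probe gave 79.2% and 74.3% with IL-6, against 92.6% to 110.5% in controls. Thus the same array order held for both probes of miR-143-3p, and their log2 differences of -0.41 and -0.38 were close. The coefficient of variation between spots of an array was 2.30% to 4.81% for these probes, which does not include the variation between arrays.

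For miR-145a-5p the 13-base probe gave 88.7% and 86.6% of its control mean with IL-6, against 95.7% to 112% in controls. The 14-base probe gave 89.4% and 88.2%, against 96.4% to 109% in controls. The log2 differences of these probes were -0.19 and -0.17, and control array 1 was the highest array on each. For miR-143-5p only the 15-base probe was detected, with 83.3% and 99.6% of its control mean with IL-6 and 92.1% to 104% in controls. Its spots varied by 12.1% to 16.3% within an array. The 14-base probe of this arm had no spot well above background on any array, and as it enters the mean of the miRNA, the levels above are below those of the detected probe.

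**Figure D3:**
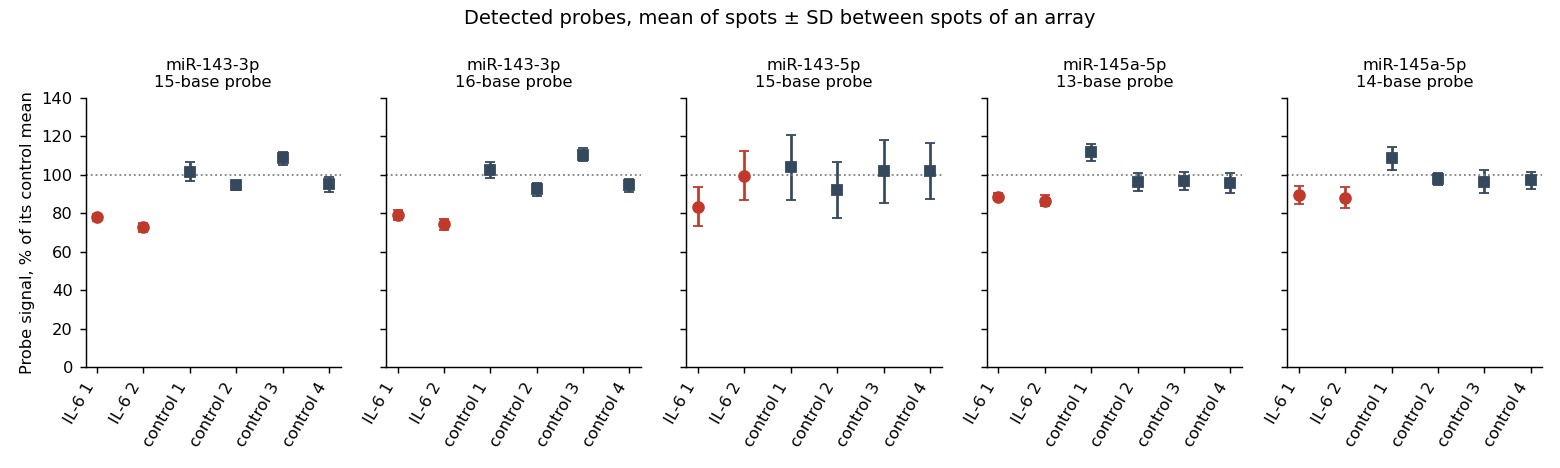
Signal of each detected probe as a percent of its own control mean (vertical, from 0) on the 2 IL-6 arrays in red and the 4 control arrays in dark, with bars for the SD between the spots of an array. Both miR-143-3p probes sit between 72.6% and 79.2% on IL-6 arrays, both miR-145a-5p probes between 86.6% and 89.4%, and the miR-143-5p probe overlaps its controls.

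A difference between miRNAs of the same array is not moved by a scaling factor common to that array, though background correction and quantile normalization can move it, and it shows only whether 2 quantities changed unequally. miR-143-3p minus the median of the 22 other tested mesenchymal miRNAs was -0.41 and -0.41 (log2) on the IL-6 arrays, against -0.02, -0.12, 0.08 and -0.11 on control arrays 1 to 4. The group difference was -0.37, with both IL-6 arrays below all controls. The exact two-sided permutation test gave p = 0.0667, the smallest that 15 splits of these arrays allow (0.1 after Benjamini-Hochberg adjustment over 3 such comparisons). Set against the median of the 296 tested miRNAs outside the cluster, it was 3.27 and 3.17 with IL-6 and 3.69, 3.72, 3.78 and 3.51 in controls, a difference of -0.45 (exact permutation p = 0.0667, adjusted 0.1). That difference was -0.26 with normexp background correction and -0.38 with quantile normalization. Its median is taken over the levels on each array, so it is not the median of differences used earlier for miR-143-3p.

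Against the median of 20 other miRNAs that promote fat cell formation, it was 0.57 and 0.68 with IL-6 and 0.83, 0.69, 1.03 and 1.04 in controls. That difference was -0.27 (exact permutation p = 0.133, adjusted 0.133), and IL-6 array 2 nearly met control array 2. These 3 comparisons cannot reach a p of 0.05 with 2 arrays against 4.

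The members were set against each other in the same way, in a pair of comparisons chosen after the levels were seen. miR-143-3p minus miR-145a-5p was 1.88 and 1.81 (log2) with IL-6, against 1.96, 2.01, 2.25 and 2.04 in controls. The IL-6 arrays were the lowest, and the group difference of -0.21 gave an exact permutation p of 0.133 (0.133 after adjustment over 2 comparisons). miR-143-3p minus the detected probe of miR-143-5p was 4.62 and 4.27 with IL-6, against 4.68, 4.73, 4.81 and 4.6 in controls. These values overlapped, with a difference of -0.26 (exact permutation p = 0.133, adjusted 0.133). Leaving out IL-6 array 1 gave -0.43, whereas leaving out its partner, IL-6 array 2, gave -0.08. An unequal response of the cluster's members was not shown at this number of arrays. With 15 splits, neither of these comparisons could reach an exact permutation p of 0.05, so they cannot decide the question.

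**Figure D4:**
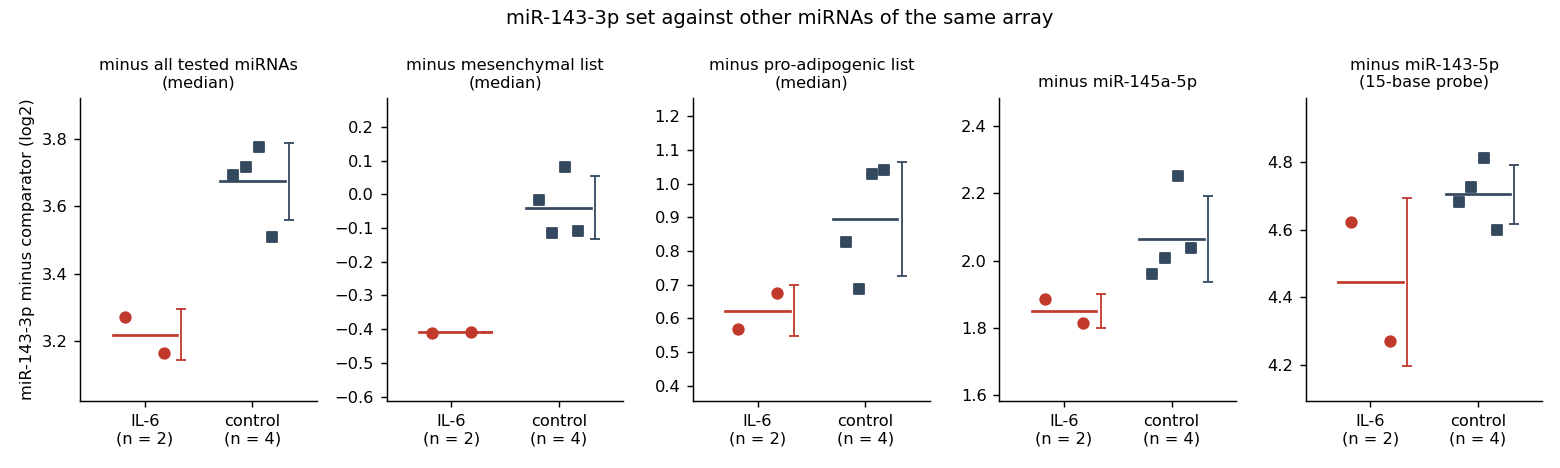
miR-143-3p minus 5 comparators measured on the same array (log2, each panel spanning the same range), with IL-6 arrays as red circles, control arrays as dark squares, lines at the means and bars for the SD. Both IL-6 arrays sit below all controls against all tested miRNAs, the mesenchymal list, the pro-adipogenic list and miR-145a-5p, and overlap them against miR-143-5p.

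The difference of miR-143-3p was -0.48 between the arrays that shared slide column 3 and -0.36 between those in column 4, where the medians of all tested miRNAs were -0.03 and -0.01. With slide column as a block in the fit it was -0.42 ± 0.07 SE (limma adjusted p = 0.177). Control arrays 1 and 2 were each alone in a column, so that estimate rests only on the arrays in columns 3 and 4. For miR-145a-5p the values within columns 3 and 4 were -0.11 and -0.14, and for miR-143-5p they were -0.30 and -0.03. Columns 3 and 4 each hold 1 array per group, so the values within them carry no error of their own.

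miRNAs tied to the same cell states were described from 3 lists. For comparison, 0.334% of all tested miRNAs passed (limma). At an unadjusted p under 0.05 (limma), 12% of all tested miRNAs were lower with IL-6 and 10.7% were higher. Of 20 tested pro-adipogenic miRNAs outside the cluster, 0 passed in either direction (limma, where an unadjusted p under 0.05 was reached by 0 that were higher and 2 that were lower). Their median log2 difference was -0.11, with 16 below 0 and 4 above and the lowest at -0.20, where 54.5% of all tested miRNAs were below 0. The sign of a list's median followed the scaling. Without scaling the pro-adipogenic median was 0.19 and 0 of 20 were below 0, while the median of all tested miRNAs was 0.27. Relative to all tested miRNAs the pro-adipogenic median was -0.09 with scaling and -0.08 without. The brightest of them were miR-21a-5p, which STAT3 switches on, at -0.15 ± 0.07 SE (limma adjusted p = 0.244) and miR-103-3p, a regulator of insulin sensitivity, at -0.11 ± 0.08 SE (limma adjusted p = 0.455). Of 23 tested anti-adipogenic miRNAs outside the cluster, 0 passed (limma, 1 higher and 4 lower unadjusted), with a median of -0.01 and a range from -0.35 to 0.43. Their median was 0.28 without scaling. Its brightest members belong to the let-7 family, which restrains cell proliferation, and the difference was -0.03 for let-7a-5p and -0.05 for let-7f-5p.

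Of the 22 tested mesenchymal miRNAs outside the cluster, 0 passed (limma), with a median of -0.05 and a range from -0.30 to 0.24. Unadjusted, 0 were higher and 1 was lower (limma), against 10.7% and 12% of all tested miRNAs. Their median was 0.24 without scaling. miR-199a-3p, an abundant fibroblast miRNA, differed by -0.05 ± 0.12 SE (limma adjusted p = 0.871). In none of these 3 lists did a member outside the cluster have a difference below that of miR-143-3p under this processing. Only 2 of all 299 tested miRNAs did, so this does not set the lists apart from the other miRNAs. Some miRNAs are in more than 1 list.

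The miRNAs whose log2 levels followed miR-143-3p most closely over the 6 arrays were ranked by Pearson's r, given as a description, since the arrays fall into the 2 groups and share their scaling. They were miR-28a-5p (r = 0.990), miR-31-5p (0.984), miR-5100 (0.983), miR-296-5p (0.959) and miR-27b-3p (0.945). Their differences between IL-6 and control were -0.30, -0.30, -0.24, -0.19 and -0.23 on the log2 scale. None of these passed, with limma adjusted p values of 0.0845 to 0.241. The most similar, miR-28a-5p, measured 4.85 and 4.75 (log2) with IL-6, against 5.15, 5.04, 5.18 and 5.01 in controls. Its arrays thus stood nearly in the order of miR-143-3p, with control array 3 highest and IL-6 array 2 lowest.

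The mature sequences of these 5 are shown, from RefSeq on GRCm38.p6, so that their seeds can be compared. Bases 2 to 8, the seed that pairs with target RNAs, are in capitals.
miR-28a-5p: aAGGAGCUcacagucuauugag
miR-31-5p: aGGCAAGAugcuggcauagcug
miR-5100: uCGAAUCCcagcggugccucu
miR-296-5p: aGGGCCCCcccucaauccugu
miR-27b-3p: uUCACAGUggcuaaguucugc
No pair of these shares a seed. They come from 5 chromosomes: miR-28a-5p from chromosome 16 (24827868 to 24827889), miR-31-5p from chromosome 4 (88910614 to 88910635), miR-5100 from chromosome 11 (60728698 to 60728718), miR-296-5p from chromosome 2 (174267093 to 174267113) and miR-27b-3p from chromosome 13 (63300760 to 63300780). The sequences of the cluster's own miRNAs are not shown here.

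The cluster's own members were not among the closest. miR-145a-5p correlated with miR-143-3p at r = 0.77, in place 56 of the 298 other tested miRNAs, and miR-143-5p at r = 0.43, in place 107. The levels of miR-143-5p were followed most closely by miR-125a-3p (r = 0.968), miR-193a-5p (0.962) and miR-1249-3p (0.927), whose differences of -0.12, -0.13 and -0.19 missed the threshold, with limma adjusted p values of 0.371 to 0.475. miR-125a-3p measured 6.02 and 6.24 (log2) with IL-6, against 6.29, 6.16, 6.29 and 6.25 in controls, with IL-6 array 1 the lowest, as for miR-143-5p.

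**Figure D5:**
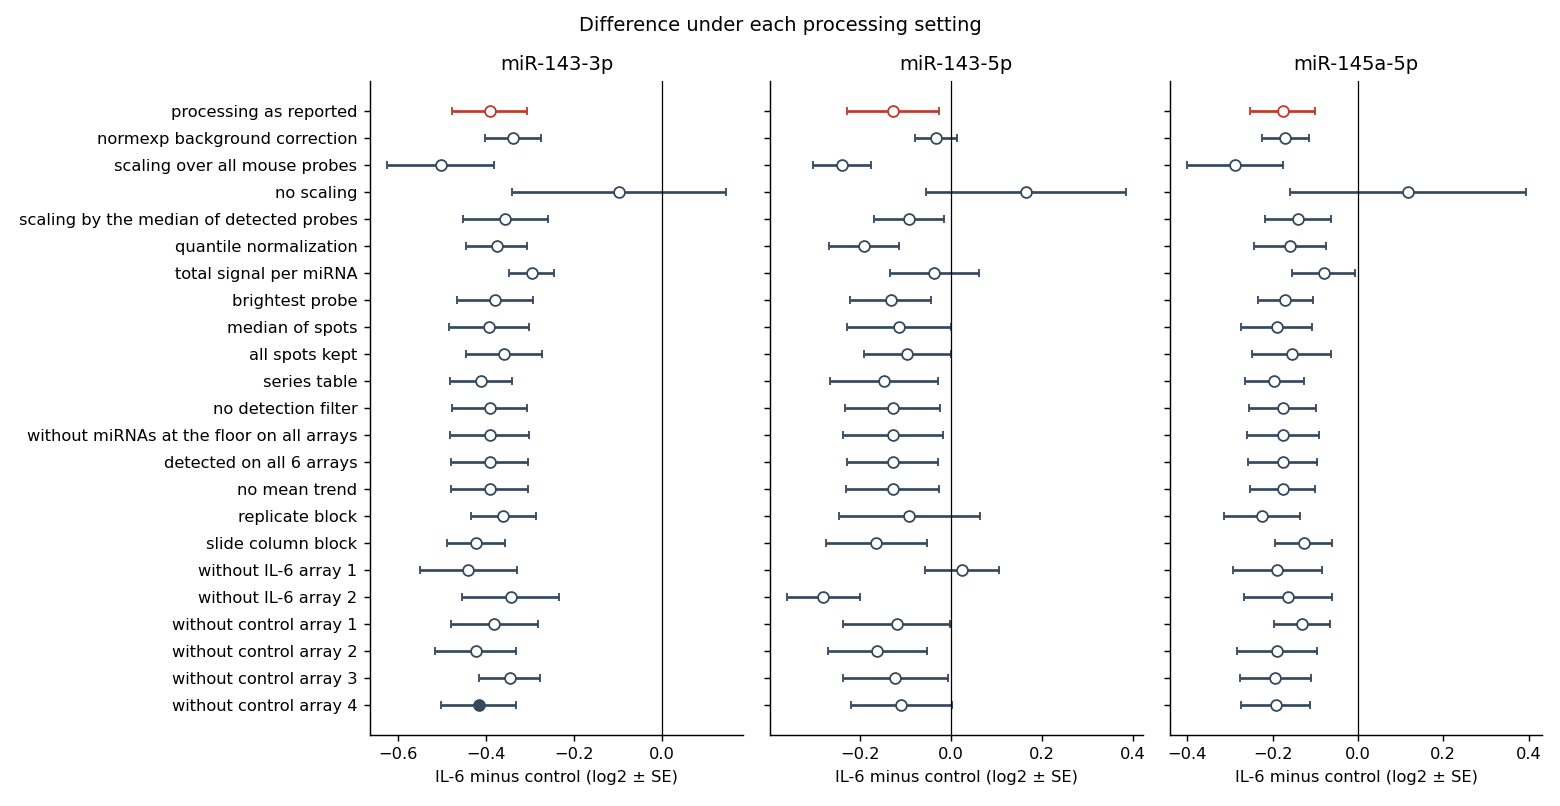
Difference between IL-6 and control (log2, horizontal, each panel with its own range, bars for limma's SE) of the 3 tested members under each processing setting (rows), in red for the processing as reported and filled where the adjusted p was under 0.05. miR-143-3p lies below 0 in every row and is filled without control array 4 alone, while miR-145a-5p crosses 0 without scaling and miR-143-5p without scaling or without IL-6 array 1.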

How the data were processed

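The deposited scanner files give an intensity for every spot. Agilent Feature Extraction 10.10.1.1, per the file headers, had already removed a background fitted over the array surface. The intensity values of the deposited series table matched the total probe signal of the scanner files (largest difference 0), so they are linear and uncentred. Their medians were 0.0727 and 0.117 on IL-6 arrays 1 and 2, against 0.0937, 0.104, 0.0777 and 0.0781 on control arrays 1 to 4. RNA was labelled with Cy3, per the labels' protocols.

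Control spots and spots marked uneven or outlying were left out. A probe counted as detected on an array if the scanner marked a fraction of 0.5 or more of its kept spots as well above background. Spots, then probes of a miRNA, were averaged, and values under 6.25, the highest of the arrays' dimmest detected miRNAs, were set to that floor before log2. miRNAs detected on every array of a group were tested with limma 3.58.1 in R 4.3.3 (mean trend, two-sided, Benjamini-Hochberg), after a check on simulated data. No mouse spot was saturated, and the number of arrays limits the precision. Groups and replicate numbers came from the titles.

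Members and lists were chosen with earlier results of these data known. Named beside members were the 2 brightest tested members of each list, any past the threshold, and the 5 and 3 miRNAs most like miR-143-3p and miR-143-5p. Alternatives varied background, scaling, summaries, filters, blocks and left-out arrays.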

Additional observations from a re-analysis of the deposited data

Results flagged for a closer look

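Of 13 sets of 4 control values checked, 4 held a value far from the others. Chance flags about 1 in 20 independent sets, but these sets share arrays, probes and miRNAs, and 3 of the 4 are miR-145a-5p and its own probes, so that rate does not apply to their number. In controls, miR-145a-5p had 1 array apart, control array 1 at 7.55 (log2) against 7.37 to 7.38 on the others, with a gap of 0.941 of the range. The same array stood apart on each of its probes, with a gap of 0.945 of the range on the 13-base probe and 0.872 on the 14-base probe. The detected 15-base probe of miR-143-5p had control array 2 apart at the low end, with 25.3 scaled intensity units against 28.0 to 28.5, a gap of 0.840 of the range. The part of these arrays in the group differences is given by the values without them, -0.13 for miR-145a-5p without control array 1 and -0.16 for miR-143-5p without control array 2.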

How the results depend on the processing

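miR-143-3p was below 0 in all 22 alternatives, from -0.50 to -0.10, with limma adjusted p from 0.0456 to 0.827. Leaving out 1 array at a time it ran from -0.44 to -0.34, and it passed without control array 4 alone (-0.42). miR-145a-5p was below 0 in 21 of 22 and turned to 0.12 without scaling, with -0.19 to -0.13 over left-out arrays. miR-143-5p turned to 0.16 without scaling and to 0.024 without IL-6 array 1, and ran from -0.28 to 0.024 over left-out arrays. The cause of these changes was not tested. The count of tested miRNAs past the threshold was 1, all higher, and 34 without scaling, 3 with the median of detected probes, 3 with total signal, 2 with scaling over all mouse probes, 2 with the brightest probe, 2 with no detection filter, and 3 without miRNAs at the floor on all arrays, a setting added after seeing the data. It was 0 with normexp, the series table, detection on all 6 arrays, replicate block or slide column block (limma, with 6, 29, 21, 36 and 34 higher and 24, 50, 35, 14 and 16 lower unadjusted). Over left-out arrays it ran from 1 to 31, and it was 31 when control array 4 was left out, 5 when IL-6 array 1 was and 3 when IL-6 array 2 was. With 1 IL-6 array left, that array is assumed to vary like the controls.

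The replicate numbers of the titles are shared by the groups, and same-numbered arrays deviated from their group means together with r = 0.06 and -0.34. With 2 IL-6 arrays, the deviations of these arrays mirror each other. The values of r are thus not independent and cannot decide whether the numbers pair the arrays. With the replicate block the differences were -0.36 for miR-143-3p, -0.23 for miR-145a-5p and -0.09 for miR-143-5p, and no member's call changed. Control arrays 3 and 4 have no same-numbered IL-6 array, so those differences rest on arrays 1 and 2 of each group. The within-array differences of miR-143-3p stayed below 0 in all 15 alternatives each, from -0.54 to -0.26 against all tested miRNAs, -0.40 to -0.33 against the mesenchymal list and -0.34 to -0.22 against the pro-adipogenic list. Signal over background limits miR-143-5p, read by 1 dim probe, and leaves miR-145a-3p and miR-145b unmeasured.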
